A study of Mus musculus with 3 samples.

Results

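Mouse bone marrow stromal cells exposed to Ocn-EV were compared with the same kind of culture exposed to control vesicles (All-EV), gene by gene. Of the 27179 genes of the deposited table, 11067 had a mean level of at least 50 over the 3 libraries of the study, and these are the genes compared. The genes were chosen by this mean and not directly by their difference between the cultures. The mean includes the compared libraries, so a gene high in only some of them can pass. Cxcl3 passed with 0 reads in Ocn-EV and Fgfr2 with 0 reads in All-EV. Ocn-EV and All-EV are preparations of extracellular vesicles, the small membrane particles that cells release into their surroundings.

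Ocn-EV came from mice carrying the CAGS-Snorkel transgene and the Ocn-Cre driver, which uses the osteocalcin promoter and is active in mature osteoblasts. All-EV came from wild-type (WT) mice without either. A further preparation, Prx1-EV, came from CAGS-Snorkel mice with the Prx1-Cre driver, active in limb mesenchyme, and its levels are given beside the compared values. All mice had the C57BL/6N background and were 6 months old, and the bone marrow plasma of 5 mice (2 males and 3 females) was pooled into 1 sample per group. Vesicles of every group passed a column of magnetic beads with an antibody to the HA tag. How that step captured vesicles of mice without the transgene is not stated in the labels. The recipient cells, labelled WT in all groups, were grown at 3% oxygen and 5% carbon dioxide and treated for 3 days, and 1 messenger RNA library was sequenced from 1 culture per group.

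With 1 library per group (n = 1) the differences cannot be set against a spread between replicates and are given without p-values. Levels are the normalised counts that the authors deposited, which are not divided by transcript length, so levels are compared between libraries and not between genes. Each ratio is log2((Ocn-EV + 1)/(All-EV + 1)), and the range in parentheses is its exact conditional binomial 95% interval from the reads recovered from the deposited values, which covers counting error only. "Higher" and "lower" compare the Ocn-EV library with the All-EV library. In bulk RNA, fewer cells of a type and less RNA per cell cannot be told apart.

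Vesicles carry proteins, lipids and RNA from the cell that made them and can be taken up by other cells. Marrow stromal cells in culture give rise to bone, fat and cartilage cells and make the growth factors and chemokines on which blood cells depend. Macrophages of the marrow adhere to culture plastic with them, engulf debris and recycle iron, and respond to microbial products through Toll-like receptors and to tissue signals through receptors for growth factors, lipids and nucleotides.

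The libraries held 14233978 (Ocn-EV) and 15558165 (All-EV) gene-assigned reads. Transcripts of stromal cells and of macrophages were present in both. Of 22 stromal markers, 20 had more than 3 reads in each library and Lum, a matrix proteoglycan gene, had none in either. This list took 0.559% of reads in Ocn-EV, 0.107% in All-EV and 0.373% in Prx1-EV, with 11 of 16 tested members above All-EV by at least 1.5-fold and 3 below (median log2 ratio 1.10). Most of its reads came from the collagen genes Col1a1, Col1a2 and Col3a1, without which the list took 0.0481% in Ocn-EV, 0.0308% in All-EV and 0.0409% in Prx1-EV. All 20 macrophage markers had more than 3 reads, and the list took 1.33%, 1.76% and 1.18% of reads, although the median log2 ratio of its members was 0.62, with 10 members at least 1.5-fold higher and 4 lower. Lyz2, the lysozyme gene, alone took 0.351% in Ocn-EV, 0.797% in All-EV and 0.269% in Prx1-EV. The part of either cell type in the ratios given below was not tested. A neutrophil list had 1640 (Ocn-EV) and 8396 (All-EV) reads, of which Mmp8, a collagenase gene, took 807 and 7933. Csf3r of that list had 811 and 344 reads in the same order, and Ly6g, Retnlg, Elane and Ltf had none in either. For a T and NK cell list the reads were 99 (Ocn-EV) and 43 (All-EV), of which Cd4 took 71 and 13, with Cd3d and Cd3e at 0. A megakaryocyte and platelet list took 0.0676% in All-EV and 0.0203% in Ocn-EV. Pf4 had 9244 of its 10513 reads in All-EV and 1755 of 2883 in Ocn-EV, whereas Treml1 had 76 and 257. A chondrocyte and tendon list took 0.0042% in All-EV and 0.0486% in Ocn-EV. Col2a1 had 575 of its 646 reads in All-EV and 6772 of 6917 in Ocn-EV, whereas Sox9 had 42 and 24. The totals of these lists thus rest mainly on single genes, and their other members did not all follow. Xist, the RNA of the inactive X chromosome of female cells, stood at 126 in Ocn-EV, 320.3 in All-EV and 5.23 in Prx1-EV, while the 4 tested Y-linked genes had a median log2 ratio of −0.06.

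Of the 11067 genes, 1159 (10.5%) were at least 2-fold apart. With Ocn-EV 694 genes (6.27%) were at least 2-fold higher and 465 (4.2%) at least 2-fold lower. At a threshold of 1.5-fold, used below for gene lists, 1528 genes (13.8%) were higher and 1506 (13.6%) lower. The median log2 ratio over all tested genes was −0.02. In 1119 of the 1159 genes the whole counting interval lay beyond 1.5-fold.

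Scaling the libraries to equal totals of gene-assigned values, in place of the deposited scaling, raised each ratio by about 0.26 on the log2 scale and put the median at 0.24. Under that scaling 1113 genes (10.1%) were at least 2-fold higher and 248 (2.24%) at least 2-fold lower, so the share of higher genes among those 2-fold apart moved from 59.9% to 81.8%. The 1.5-fold shares became 24.7% higher and 6.65% lower. With equal totals, 12 of the 16 tested stromal markers were at least 1.5-fold higher and 3 lower (median 1.35). Of the 20 macrophage markers, 11 were higher and 3 lower (median 0.87). The lists counted below are therefore given under both scalings, and their counts are to be read against these shares of all genes. A further setting takes out the trend of the ratios on the length and GC content of transcripts. Under it 12.6% of genes were at least 1.5-fold higher and 11.3% lower. List counts without the trend are given for some lists only, and the counts of other lists may have moved too.

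The ratios were not evenly spread over levels. In the plot of ratio against level, genes with a mean between 50 and 100 were at least 2-fold higher in 14.1% of cases and lower in 5.49%, with a median counting interval of about 0.53 to either side. Among the 167 genes with a mean over 10000 these shares were 5.39% and 14.4%, and their median log2 ratio was −0.34. Medians per autosome and for chromosome X lay between −0.10 and 0.03. The 12 tested mitochondrially encoded genes had a median of −0.20.

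**Figure D1:**
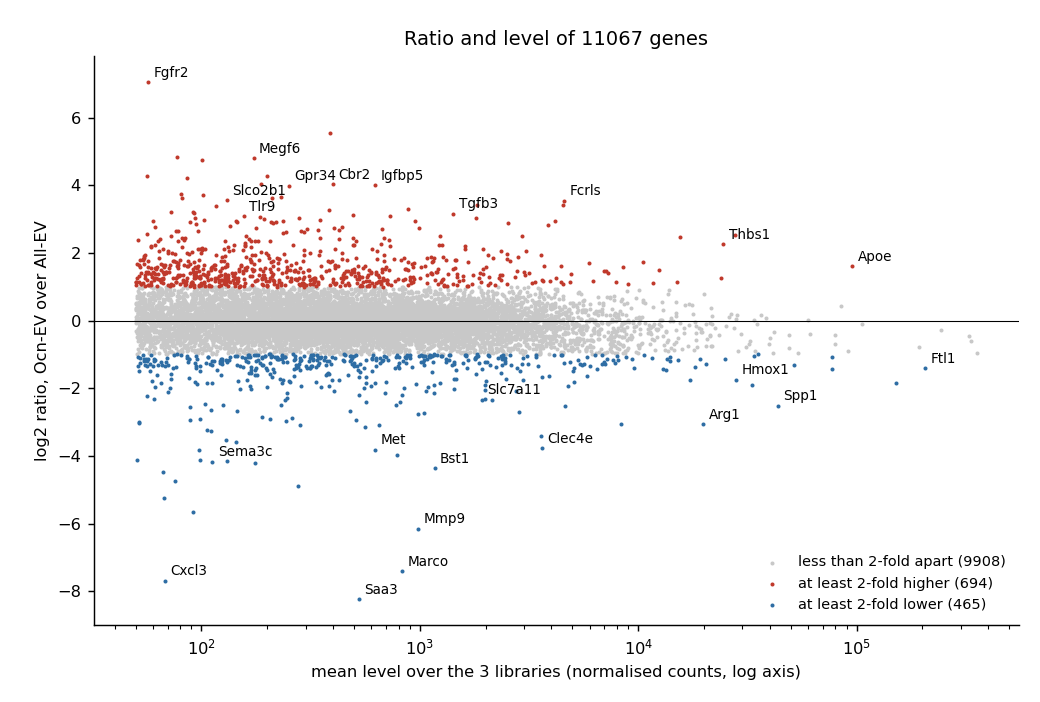
Each point is a gene, with the mean level of the 3 libraries on a log axis and the log2 ratio of Ocn-EV over All-EV on the vertical axis. Of 11067 genes, 694 lie at least 2-fold above 0 and 465 at least 2-fold below. Fgfr2 and Cxcl3 have 0 reads in 1 of the compared libraries, so their plotted ratios rest on the pseudocount of 1.

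Growth factor genes were mostly higher with Ocn-EV. The growth factor ligands list had 13 of 24 tested members at least 1.5-fold higher and 0 lower, and 15 and 0 with equal totals (medians 0.67 and 0.92). The median was smaller at other level filters, 0.33 at 200, 0.50 at 10 and 0.36 with none. Fgf7, a fibroblast growth factor that stromal cells make for epithelial cells, stood at 294 in Ocn-EV, 56.6 in All-EV and 177 in Prx1-EV (log2 ratio 2.36, 1.94 to 2.84). Tgfb3, a transforming growth factor of connective tissue, stood at 2135 in Ocn-EV, 239 in All-EV and 1887 in Prx1-EV (3.16, 2.96 to 3.37). Inhbb, which encodes the beta chain of activin B, had levels of 156 in Ocn-EV, 35.1 in All-EV and 119.5 in Prx1-EV (2.12, 1.59 to 2.76). In all of these genes Ocn-EV was the highest library and Prx1-EV lay between it and All-EV. Igf2 (log2 ratio 2.20, 1.5 to 3.10), a fetal growth factor gene, and Pdgfc (1.60, 1.39 to 1.84), a platelet-derived growth factor gene, were higher too. Vegfa, the main blood vessel growth factor, did not share this pattern, at 11182 in Ocn-EV, 13589 in All-EV and 11971 in Prx1-EV (−0.28, −0.32 to −0.24).

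Of the receptors for such factors, more tested members were higher than lower, and 1 was far lower. Of 19 tested receptor tyrosine kinases outside the Eph family, 12 were at least 1.5-fold higher and 2 lower (median log2 ratio 0.80), and 14 and 1 with equal totals (median 1.06). Without the length and GC trend 9 members were higher and 2 lower (median 0.53). Fgfr2, a receptor of Fgf7, had 127 reads in Ocn-EV, 0 in All-EV and 46 in Prx1-EV, at least 38.7-fold higher in Ocn-EV with 3 reads set as the limit for All-EV. Pdgfrb, the receptor that marks pericytes and stromal cells, stood at 539 in Ocn-EV, 129 in All-EV and 379 in Prx1-EV (2.06, 1.77 to 2.37). Mertk, a macrophage receptor for the uptake of dying cells, stood at 2194 in Ocn-EV, 866 in All-EV and 2199 in Prx1-EV (1.34, 1.22 to 1.46). Against these, Met (chr6:17463349-17573980, build GRCm38.p6), the receptor of hepatocyte growth factor, stood at 111 in Ocn-EV, 1573 in All-EV and 192 in Prx1-EV (−3.82, −4.13 to −3.54), 14.2-fold lower in Ocn-EV than in All-EV. Its level in Ocn-EV was also below that in Prx1-EV beyond counting error (log2 ratio −0.79, −1.14 to −0.45).

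Guidance cues, known from the wiring of nerves and also used by bone and immune cells, were higher in part. The axon guidance cues and receptors list had 11 of 30 tested members at least 1.5-fold higher and 3 lower, and 17 and 2 with equal totals (medians 0.37 and 0.62). With the length and GC trend taken out the counts were 7 and 4 (median 0.09). The secreted cue Slit3 stood at 137 in Ocn-EV, 30.6 in All-EV and 122 in Prx1-EV (2.13, 1.56 to 2.82) and Ntn1, which encodes netrin-1, at 219.5 in Ocn-EV, 61.1 in All-EV and 218 in Prx1-EV (1.83, 1.41 to 2.30). The largest difference in the list was in the other direction. Sema3c, a secreted semaphorin, stood at 15.5 in Ocn-EV, 298 in All-EV and 23.6 in Prx1-EV (−4.18, −5.12 to −3.51), low in both transgenic preparations. All 4 tested genes of the ephrin system were at least 1.5-fold higher, as deposited and with equal totals (medians 1.11 and 1.37), and 3 of them without the length and GC trend. They were Efnb1 (log2 ratio 1.76, 1.52 to 2.03), Ephb4 (1.34, 0.89 to 1.85), Epha2 (0.88, 0.61 to 1.17) and Efnb2 (0.69, 0.13 to 1.29).

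G protein-coupled receptors were higher more often than lower. Of 48 tested other G protein-coupled receptors, 21 were at least 1.5-fold higher and 8 lower (median log2 ratio 0.44), and 25 and 6 with equal totals (median 0.69). Gpr34, a lysophosphatidylserine receptor of tissue macrophages and microglia, stood at 375 in Ocn-EV, 22.6 in All-EV and 359 in Prx1-EV (3.99, 3.40 to 4.78). Pth1r, the receptor of parathyroid hormone on bone cells, stood at 282 in Ocn-EV, 36.2 in All-EV and 120.4 in Prx1-EV (2.93, 2.43 to 3.54), and its level in Ocn-EV exceeded that in Prx1-EV beyond counting error (log2 ratio 1.22, 0.93 to 1.53). P2ry13, a receptor for ADP, stood at 77.7 in Ocn-EV, 12.4 in All-EV and 79.4 in Prx1-EV (2.55, 1.72 to 3.70). All 3 receptors were lowest in All-EV. The lower members included receptors of prostaglandins, with Ptgir, the prostacyclin receptor, at 396 in Ocn-EV, 1582 in All-EV and 560.1 in Prx1-EV (−2.0, −2.17 to −1.84), and Ptger2, a receptor of prostaglandin E2, at 611 in Ocn-EV, 1326 in All-EV and 668 in Prx1-EV (−1.12, −1.26 to −0.97).

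Enzymes that make and break down lipid mediators went both ways. The prostanoid and leukotriene enzymes list had 7 of 20 tested members at least 1.5-fold higher and 4 lower, and 8 and 4 with equal totals (medians −0.08 and 0.17). Cbr2, a carbonyl reductase, stood at 625 in Ocn-EV, 37.3 in All-EV and 543 in Prx1-EV (4.03, 3.56 to 4.62). Ptgis, which makes prostacyclin, stood at 166 in Ocn-EV, 20.4 in All-EV and 123 in Prx1-EV (2.96, 2.32 to 3.81), while the receptor of that product, Ptgir, was lower as given above. Hpgd, which inactivates prostaglandins, stood at 116 in Ocn-EV, 20.4 in All-EV and 109 in Prx1-EV (2.45, 1.78 to 3.32). Ptges, the inducible synthase of prostaglandin E2, stood at 267 in Ocn-EV, 817 in All-EV and 327 in Prx1-EV (−1.61, −1.82 to −1.41), and Alox5ap, the partner protein of the leukotriene-forming lipoxygenase, at 1823 in Ocn-EV, 4819 in All-EV and 1685 in Prx1-EV (−1.40, −1.48 to −1.32). Both were lower in Ocn-EV and in Prx1-EV than in All-EV.

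Cytokine receptor genes were higher more often than lower, and cytokine genes went both ways. Of 28 tested cytokine receptors, 9 were at least 1.5-fold higher and 3 lower (median log2 ratio 0.20), and 11 and 1 with equal totals (median 0.46). Il10ra, the receptor chain through which interleukin-10 acts on macrophages, stood at 1317 in Ocn-EV, 438 in All-EV and 1027 in Prx1-EV (1.59, 1.42 to 1.76), and Il2rg, the chain shared by several interleukin receptors, at 271 in Ocn-EV, 1079.6 in All-EV and 314 in Prx1-EV (−1.99, −2.20 to −1.79). Of 11 tested interleukin and TNF family ligands, 3 were at least 1.5-fold higher and 2 lower (median log2 ratio 0.09), with the same counts under equal totals (median 0.34). Il1a, an alarm cytokine, stood at 91.1 in Ocn-EV, 517 in All-EV and 88.1 in Prx1-EV (−2.49, −2.85 to −2.17), and its antagonist Il1rn at 4013 in Ocn-EV, 10095 in All-EV and 3988 in Prx1-EV (−1.33, −1.39 to −1.28). The TNF receptor family had 4 of 14 tested genes beyond 1.5-fold upward and 5 downward, and 5 and 4 with equal totals (medians −0.11 and 0.15). Tnfrsf9, an activation-induced receptor, stood at 361 in Ocn-EV, 1675 in All-EV and 449 in Prx1-EV (−2.21, −2.38 to −2.04), while Tnfrsf11a, the receptor through which osteoclasts form, stood at 849 in Ocn-EV, 412 in All-EV and 958 in Prx1-EV (1.04, 0.86 to 1.23). An osteoclast marker list that includes Tnfrsf11a had 2 of 8 tested members at least 1.5-fold higher and 4 lower (median log2 ratio −0.55). With equal totals the counts were 2 and 4 (median −0.30), and without the length and GC trend 1 and 4 (median −0.53).

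Chemokine ligands had the lowest median of the 70 function lists with at least 5 tested members, as deposited and with equal totals. The chemokine ligands list had 2 of 15 tested members at least 1.5-fold higher and 9 lower, and 4 and 8 with equal totals (medians −1.41 and −1.16). The rank was lost without the length and GC trend (median −0.78, against −0.97 for inflammatory macrophage genes), at a level filter of 10 (−0.66 against −1.33), and at a filter of 200 or none (−0.55 in each, against −1.07 and −1.33). Cxcl2, which draws neutrophils, stood at 18.6 in Ocn-EV, 349.7 in All-EV and 26.2 in Prx1-EV (−4.16, −5.00 to −3.55). Its neighbour on chromosome 5, Cxcl3, had 181 reads in All-EV and none in Ocn-EV or Prx1-EV, at least 65.9-fold lower in Ocn-EV with 3 reads as the limit. Ccl5, which draws T cells and monocytes, stood at 4.14 in Ocn-EV, 260.3 in All-EV and 11.3 in Prx1-EV (−5.67, −7.86 to −4.60), and Ppbp, best known from platelets, at 14.5 in Ocn-EV, 126 in All-EV and 14.8 in Prx1-EV (−3.03, −4.03 to −2.31). The exceptions were Cxcl12, the stromal chemokine that holds blood stem cells in the marrow, at 976 in Ocn-EV, 463 in All-EV and 709 in Prx1-EV (1.08, 0.91 to 1.25), and Ccl4 at 157 in Ocn-EV, 91.7 in All-EV and 133 in Prx1-EV (0.77, 0.38 to 1.19). Of the receptors, Ccr1 stood at 713 in Ocn-EV, 2045 in All-EV and 655 in Prx1-EV (−1.52, −1.65 to −1.39), whereas Cx3cr1, the fractalkine receptor of monocytes and resident macrophages, stood at 187 in Ocn-EV, 23.8 in All-EV and 55.0 in Prx1-EV (2.93, 2.32 to 3.71), highest in Ocn-EV.

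Promoters that hold a match to 1 of 3 motifs are shown for the 6 named genes with the ratios farthest from 0 among those with such a match, so every promoter shown has one. NF-kB, the factor of one of the motifs, is the transcription factor of inflammatory signalling. The sequences are from RefSeq (GRCm38.p6), 250 bases before to 50 after the gene's start, 5′ to 3′ on the gene's strand. Capitals mark matches, on either strand, to the letters GGG and TTTCC with a gap of any 2 bases (NF-kB type), TGACNNNGC (antioxidant response core) or CATTCC (TEAD type). In Cxcl3 (chr5:90785851-90786150, plus strand) they are an NF-kB type match starting 73 bases before the gene's start and, farther upstream, a TEAD type match on the reverse strand. Cxcl2 (chr5:90903649-90903948, plus strand) holds a pair of NF-kB type matches, starting 97 and 78 bases before the start. In Marco (chr1:120504975-120505274, minus strand), the gene of a scavenger receptor, 1 such match starts 30 bases before it. Igfbp5 (chr1:72874816-72875115, minus strand), which encodes a binding protein of insulin-like growth factors and stood among the highest ratios, holds a TEAD type match. Tarm1 (chr7:3502575-3502874, minus strand) has an antioxidant response core match on the reverse strand 249 bases before the start. The TEAD type match of Hspb7 (chr4:141420529-141420828, plus strand) begins just after the start.
Cxcl3: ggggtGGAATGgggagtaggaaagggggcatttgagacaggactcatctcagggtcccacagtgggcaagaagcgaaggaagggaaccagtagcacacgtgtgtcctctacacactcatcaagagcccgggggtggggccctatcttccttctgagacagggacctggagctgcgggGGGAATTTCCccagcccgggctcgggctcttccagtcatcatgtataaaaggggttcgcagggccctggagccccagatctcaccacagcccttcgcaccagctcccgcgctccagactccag
Cxcl2: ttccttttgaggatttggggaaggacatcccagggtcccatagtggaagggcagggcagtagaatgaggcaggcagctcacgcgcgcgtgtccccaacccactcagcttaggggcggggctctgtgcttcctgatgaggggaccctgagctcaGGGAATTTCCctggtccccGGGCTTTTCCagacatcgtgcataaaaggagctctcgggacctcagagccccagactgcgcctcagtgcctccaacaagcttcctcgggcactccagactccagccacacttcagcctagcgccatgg
Marco: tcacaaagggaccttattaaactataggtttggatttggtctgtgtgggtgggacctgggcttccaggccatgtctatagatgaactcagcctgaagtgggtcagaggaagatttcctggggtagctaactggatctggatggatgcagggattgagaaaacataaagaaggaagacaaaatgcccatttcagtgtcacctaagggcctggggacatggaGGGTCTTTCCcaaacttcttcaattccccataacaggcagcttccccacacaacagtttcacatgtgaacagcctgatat
Igfbp5: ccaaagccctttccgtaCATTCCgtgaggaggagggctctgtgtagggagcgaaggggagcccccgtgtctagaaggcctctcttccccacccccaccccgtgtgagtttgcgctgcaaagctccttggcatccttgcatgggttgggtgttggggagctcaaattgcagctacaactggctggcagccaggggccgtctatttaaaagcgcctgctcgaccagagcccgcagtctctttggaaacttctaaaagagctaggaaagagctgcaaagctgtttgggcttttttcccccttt
Tarm1: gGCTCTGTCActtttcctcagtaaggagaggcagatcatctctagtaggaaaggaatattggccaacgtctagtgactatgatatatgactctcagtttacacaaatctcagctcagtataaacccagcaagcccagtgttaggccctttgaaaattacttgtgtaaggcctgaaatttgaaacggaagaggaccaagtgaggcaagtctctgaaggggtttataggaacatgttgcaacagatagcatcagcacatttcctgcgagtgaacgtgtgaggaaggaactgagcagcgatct
Hspb7: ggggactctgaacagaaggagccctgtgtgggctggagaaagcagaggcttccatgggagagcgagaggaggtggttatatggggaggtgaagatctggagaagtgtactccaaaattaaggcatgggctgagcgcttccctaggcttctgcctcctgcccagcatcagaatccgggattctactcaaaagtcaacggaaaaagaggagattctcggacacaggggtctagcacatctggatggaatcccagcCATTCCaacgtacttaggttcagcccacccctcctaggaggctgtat

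Matches of the NF-kB type stood in 149 of 8843 promoters of tested genes (1.68%). They stood in 8 of the 353 promoters of genes at least 2-fold lower (2.27%). In the 520 promoters of genes at least 2-fold higher there were 4 (0.769%). On the forward strand alone the counts were 69, 3 and 1 in the same order (0.78%, 0.85% and 0.19%). These are few promoters, and the difference was not tested. TEAD type matches stood in 11.3% of all, 10.5% of the lower and 15.0% of the higher set. For the antioxidant response core the shares were 15.3%, 15.6% and 13.8%. A match is a description of these letters and not of binding.

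The subunits and inhibitors of NF-kB were themselves lower in part. Of 26 tested NF-kB subunits and inhibitors, 2 were at least 1.5-fold higher and 7 lower (median log2 ratio −0.28), and 2 and 5 with equal totals (median −0.03). The counts were 1 and 11 without the length and GC trend (median −0.44). Relb, a subunit that inflammatory signals induce, stood at 328 in Ocn-EV, 939 in All-EV and 328 in Prx1-EV (−1.51, −1.71 to −1.33), and Nfkbia, the inhibitor that the factor induces to limit itself, at 441 in Ocn-EV, 792 in All-EV and 465 in Prx1-EV (−0.84, −1.02 to −0.67). Nfkbid, an atypical nuclear inhibitor, stood at 136 in Ocn-EV, 32.8 in All-EV and 104 in Prx1-EV (2.01, 1.46 to 2.68), opposite to most of the list. Dusp4, a phosphatase of MAP kinases, stood at 1659 in Ocn-EV, 5562 in All-EV and 1695 in Prx1-EV (−1.74, −1.83 to −1.66), and Socs3, the feedback inhibitor of interleukin-6 signalling, at 96.3 in Ocn-EV, 242 in All-EV and 100.3 in Prx1-EV (−1.32, −1.70 to −0.97).

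**Figure D2:**
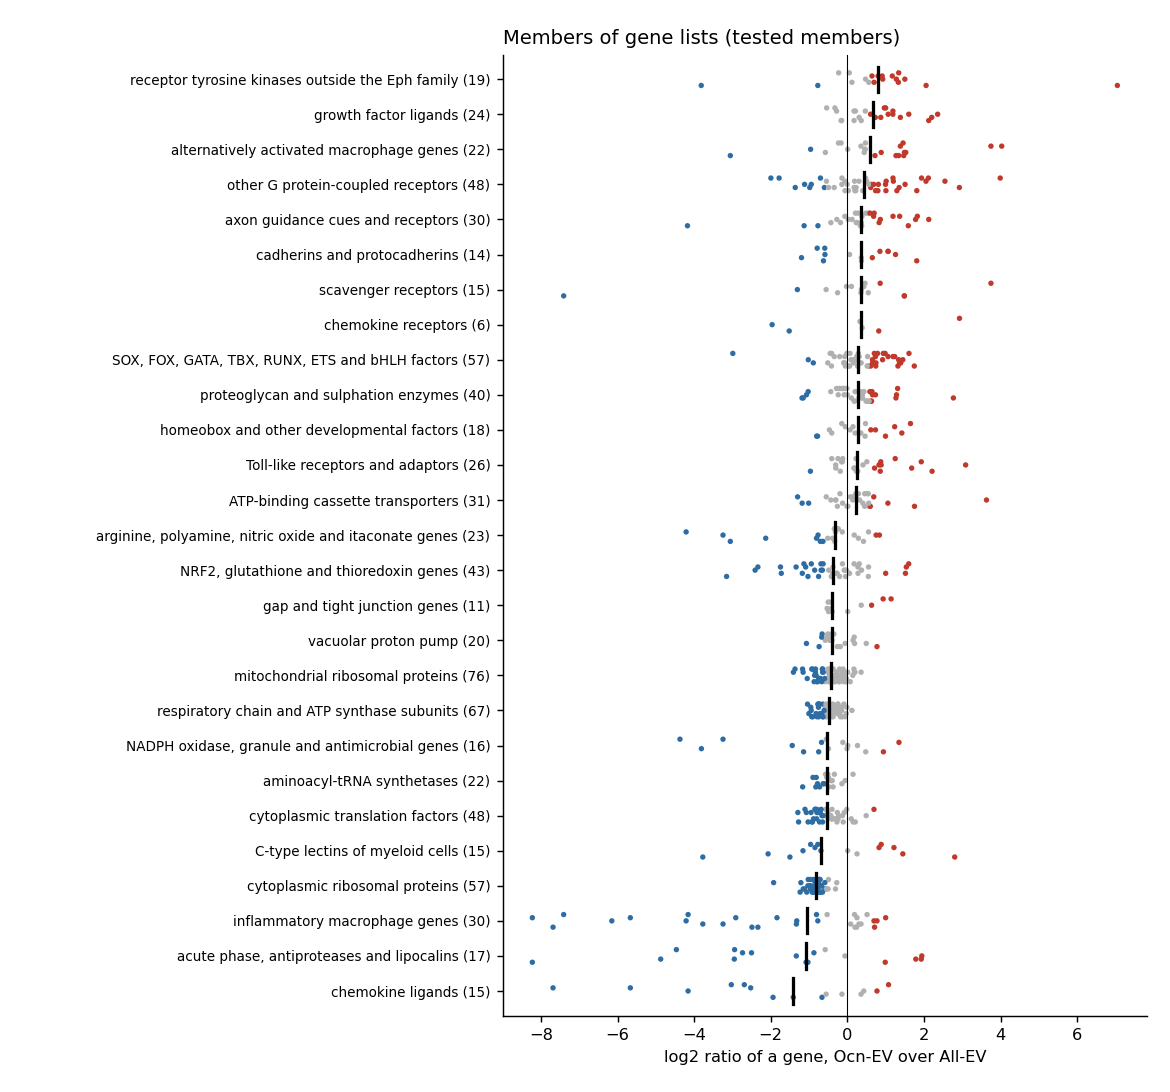
Each point is a tested gene, with its log2 ratio of Ocn-EV over All-EV on the horizontal axis, for the 14 function lists with the lowest and the 13 with the highest medians. Black bars are list medians, red points are at least 1.5-fold higher, blue points at least 1.5-fold lower, and the number of tested members is in parentheses. As deposited, the chemokine ligands have the lowest median (−1.41) and the receptor tyrosine kinases the highest (0.80), ranks that both change without the length and GC trend (−0.78 and 0.53).

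Genes of innate immune recognition went both ways by family. The Toll-like receptors and adaptors list had 10 of 26 tested members at least 1.5-fold higher and 1 lower, and 12 and 1 with equal totals (medians 0.25 and 0.51). Tlr9, the endosomal receptor of microbial DNA, stood at 229 in Ocn-EV, 26.0 in All-EV and 213 in Prx1-EV (3.09, 2.51 to 3.82). Tlr8, an endosomal receptor of RNA, stood at 1285 in Ocn-EV, 401 in All-EV and 1087 in Prx1-EV (1.68, 1.51 to 1.86), and Tlr1, which pairs with Tlr2 to bind bacterial lipopeptides, at 208 in Ocn-EV, 44.1 in All-EV and 221 in Prx1-EV (2.21, 1.74 to 2.77). The lower member was Ticam1, the adaptor of Tlr3, at 535 in Ocn-EV, 1046 in All-EV and 558 in Prx1-EV (−0.96, −1.12 to −0.81).

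Surface lectins and paired receptors of myeloid cells split. Of 15 tested C-type lectins of myeloid cells, 5 were at least 1.5-fold higher and 8 lower (median log2 ratio −0.69), and 5 and 6 with equal totals (median −0.43). Clec4e, which encodes the mycobacterial glycolipid receptor Mincle, stood at 684 in Ocn-EV, 9379 in All-EV and 815 in Prx1-EV (−3.77, −3.89 to −3.66), 13.7-fold lower. Clec4n, a receptor of fungal sugars, stood at 1376 in Ocn-EV, 5779.5 in All-EV and 1143 in Prx1-EV (−2.07, −2.16 to −1.98). The mannose receptor Mrc1 stood at 11111 in Ocn-EV, 6024 in All-EV and 9559 in Prx1-EV (0.88, 0.84 to 0.93) and Clec11a, a secreted lectin that acts on bone formation, at 235 in Ocn-EV, 32.8 in All-EV and 136 in Prx1-EV (2.80, 2.28 to 3.45). Clec4a1 and Clec4a3 were higher too, but they are close copies whose reads could be split between them.

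Fc and paired receptors had 9 of 38 tested members at least 1.5-fold higher and 9 lower, and 11 and 7 with equal totals (medians −0.11 and 0.14). Fcrls (chr3:87250736-87263765, build GRCm38.p6), an Fc receptor-like scavenger gene known as a microglial marker, stood at 6662 in Ocn-EV, 569 in All-EV and 6453 in Prx1-EV (3.55, 3.42 to 3.68), 11.7-fold higher. It had the highest ratio among genes with a mean of at least 1000. Siglecg, a sialic acid receptor, stood at 182 in Ocn-EV, 35.1 in All-EV and 169 in Prx1-EV (2.34, 1.82 to 2.98). Tarm1, an activating receptor of myeloid cells, stood at 4.14 in Ocn-EV, 194 in All-EV and 3.49 in Prx1-EV (−5.24, −7.44 to −4.16), and Treml4 at 7.25 in Ocn-EV, 217 in All-EV and 2.62 in Prx1-EV (−4.73, −6.24 to −3.84), both near 0 in the Ocn-EV and Prx1-EV libraries. Sirpb1a and Sirpb1c were lower as well, and as near-identical copies their reads cannot be assigned with certainty.

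Genes of macrophage activation states differed within their lists. The alternatively activated macrophage genes list had 11 of 22 tested members at least 1.5-fold higher and 2 lower, and 16 and 2 with equal totals (medians 0.60 and 0.85). Cd163, the haemoglobin scavenger receptor, stood at 165 in Ocn-EV, 11.3 in All-EV and 65.4 in Prx1-EV (3.75, 2.95 to 4.95) and Ms4a7, a membrane protein gene of resident macrophages, at 2618 in Ocn-EV, 909 in All-EV and 2344 in Prx1-EV (1.53, 1.41 to 1.64). The list's best-known member went the other way: Arg1 (chr10:24915207-24927470, build GRCm38.p6), the arginine-degrading enzyme, stood at 5779.8 in Ocn-EV, 48069 in All-EV and 5778 in Prx1-EV (−3.06, −3.10 to −3.02), 8.32-fold lower. Of 30 tested inflammatory macrophage genes, 4 were at least 1.5-fold higher and 17 lower (median log2 ratio −1.06), and 6 and 15 with equal totals (median −0.81). Acod1, which makes the antibacterial metabolite itaconate, stood at 28 in Ocn-EV, 274 in All-EV and 16.6 in Prx1-EV (−3.25, −3.92 to −2.72). Tlr2 (log2 ratio 0.71, 0.45 to 0.98) and Inhba (1.00, 0.88 to 1.13), a chain of activin A, were among the 4 higher members. Bst1, an NAD-consuming surface enzyme first found on marrow stromal cells, stood at 153 in Ocn-EV, 3190.2 in All-EV and 161 in Prx1-EV (−4.37, −4.63 to −4.14), the lowest ratio among genes with a mean of at least 1000.

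Genes of secreted defence proteins were mostly lower, and complement genes went both ways. The acute phase, antiproteases and lipocalins list had 4 of 17 tested members at least 1.5-fold higher and 11 lower, and 4 and 11 with equal totals (medians −1.08 and −0.82). Slpi, an inhibitor of neutrophil elastase, stood at 25.9 in Ocn-EV, 788 in All-EV and 15.7 in Prx1-EV (−4.87, −5.57 to −4.35). The higher members were Serpinh1 (1.94, 1.85 to 2.04), the collagen chaperone, Lbp (1.93, 1.26 to 2.76), which carries bacterial lipopolysaccharide, Serping1 (1.79, 1.43 to 2.18), the inhibitor of complement component 1, and Serpinf1 (0.99, 0.87 to 1.11). The complement and coagulation list had 11 of 35 tested members at least 1.5-fold higher and 8 lower, and 17 and 8 with equal totals (medians 0.15 and 0.41). C3, the central complement protein, stood at 131 in Ocn-EV, 2069 in All-EV and 147 in Prx1-EV (−3.97, −4.25 to −3.72), and Cfb, factor B of the alternative pathway, at 26.9 in Ocn-EV, 324 in All-EV and 39.3 in Prx1-EV (−3.54, −4.23 to −3.01). C1qa, a chain of the initiating complex C1q, stood at 5730.1 in Ocn-EV, 2568 in All-EV and 3533 in Prx1-EV (1.16, 1.09 to 1.23), and C5ar1, a receptor of the fragment C5a, at 4950.4 in Ocn-EV, 2152 in All-EV and 3788 in Prx1-EV (1.20, 1.12 to 1.28). Procr, the endothelial and stem cell receptor of protein C, stood at 309 in Ocn-EV, 1744 in All-EV and 291 in Prx1-EV (−2.49, −2.68 to −2.32).

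**Figure D3:**
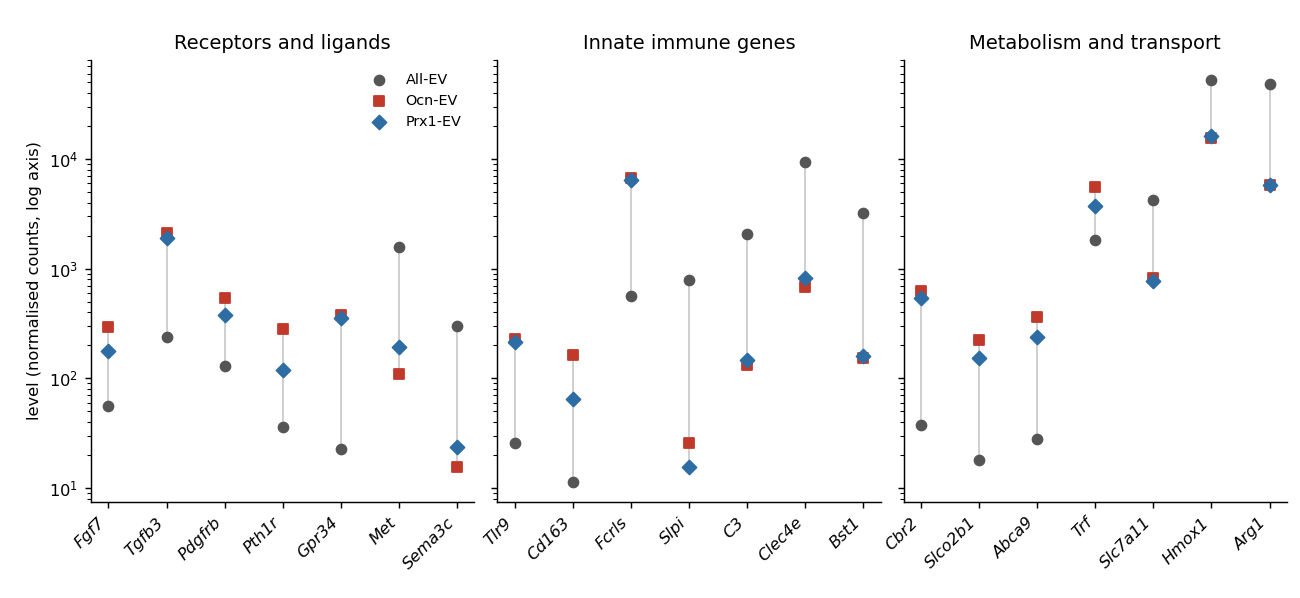
Levels of 21 genes in the 3 libraries, in normalised counts on a log axis, with 1 library per group and no error bars. Gpr34, Fcrls and Cbr2 lie far above All-EV in both other libraries, while Met, Clec4e, Bst1 and Arg1 lie far below it.

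Adhesion genes went both ways, also within the integrin family. The integrin subunits list had 8 of 17 tested members at least 1.5-fold higher and 4 lower, and 8 and 4 with equal totals (medians 0.21 and 0.46). Without the length and GC trend 3 members were higher and 4 lower (median 0.21). Itga11, a collagen receptor of fibroblasts, stood at 2375 in Ocn-EV, 551 in All-EV and 1913 in Prx1-EV (2.11, 1.97 to 2.25), and Itga1, another collagen receptor, at 111 in Ocn-EV, 20.4 in All-EV and 119 in Prx1-EV (2.39, 1.71 to 3.25). Itgam, the alpha chain of the macrophage and neutrophil integrin Mac-1, stood at 8534 in Ocn-EV, 22791 in All-EV and 7532 in Prx1-EV (−1.42, −1.45 to −1.38), and its partner Itgb2 at 9653 in Ocn-EV, 21089 in All-EV and 9842 in Prx1-EV (−1.13, −1.16 to −1.09). Itgal, which shares the partner Itgb2, was higher at 1348 in Ocn-EV, 569 in All-EV and 895 in Prx1-EV (1.24, 1.09 to 1.40). Fat1, a giant protocadherin, stood at 3558 in Ocn-EV, 1013 in All-EV and 2913 in Prx1-EV (1.81, 1.71 to 1.92), and Esam, an adhesion molecule of endothelium and blood stem cells, at 73.5 in Ocn-EV, 584 in All-EV and 77.6 in Prx1-EV (−2.97, −3.37 to −2.63).

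Genes of the cell skeleton and of endocytosis included members on both sides of 0. Fermt2, which activates integrins in adherent cells, stood at 1513 in Ocn-EV, 562 in All-EV and 1469.9 in Prx1-EV (1.43, 1.28 to 1.58), and Rac2, the Rac form of blood cells, at 945 in Ocn-EV, 2089 in All-EV and 909.9 in Prx1-EV (−1.14, −1.26 to −1.03). The endocytosis and vesicle uptake list had 17 of 61 tested members at least 1.5-fold higher and 6 lower, and 25 and 4 with equal totals (medians 0.21 and 0.46). With the length and GC trend taken out the counts were 16 and 9 (median 0.14). Stab1, a scavenger receptor of macrophages and sinusoidal endothelium, stood at 17936 in Ocn-EV, 6389 in All-EV and 13006 in Prx1-EV (1.49, 1.45 to 1.53), and Sorl1, a sorting receptor, at 361 in Ocn-EV, 123 in All-EV and 366 in Prx1-EV (1.54, 1.24 to 1.87). The caveola genes stood on opposite sides of 0: Cavin1, a coat protein of these surface pits, stood at 1131 in Ocn-EV, 320.3 in All-EV and 844 in Prx1-EV (1.82, 1.63 to 2.01), while Cav1, their membrane protein, stood at 1233 in Ocn-EV, 2602 in All-EV and 1589 in Prx1-EV (−1.08, −1.18 to −0.98) and Cav2 at 1313 in Ocn-EV, 2736 in All-EV and 1469 in Prx1-EV (−1.06, −1.16 to −0.96).

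The genes of vesicle formation and release, the process behind the treatment itself, had few members beyond 1.5-fold. The vesicle formation and release list had 2 of 41 tested members at least 1.5-fold higher and 3 lower, and 4 and 0 with equal totals (medians −0.04 and 0.21). The vesicle tetraspanins Cd63 (log2 ratio −0.04, −0.08 to −0.01), Cd9 (−0.15, −0.20 to −0.11) and Cd81 (0.56, 0.48 to 0.64) lay within 1.5-fold as deposited. The interval of Cd81 reached past 1.5-fold, and the shift of about 0.26 with equal totals puts its ratio beyond it. Rab27a, a GTPase of exosome secretion, had levels of 24.9 in Ocn-EV, 4.53 in All-EV and 38.4 in Prx1-EV, below the level filter. Bglap, the osteocalcin gene whose promoter drives Ocn-Cre, had 4 reads in Ocn-EV and 0 in each of the others.

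Genes of metal handling were lower more often than higher as deposited, and the counts lay closer together with equal totals. The iron, copper and zinc handling list had 3 of 40 tested members at least 1.5-fold higher and 11 lower, and 6 and 8 with equal totals (medians −0.30 and −0.04). Ftl1, the light chain of the iron store ferritin, stood at 132409 in Ocn-EV, 350786 in All-EV and 136302 in Prx1-EV (−1.41, −1.42 to −1.40), with the caution that ferritin genes have near-identical copies. Hmox1, which frees iron from haem, stood at 15684 in Ocn-EV, 52623 in All-EV and 16134 in Prx1-EV (−1.75, −1.77 to −1.72), and the metal-binding metallothionein Mt2 at 332 in Ocn-EV, 2261 in All-EV and 338 in Prx1-EV (−2.76, −2.94 to −2.60). Tfrc, the transferrin receptor, was higher at 807 in Ocn-EV, 335 in All-EV and 902 in Prx1-EV (1.27, 1.07 to 1.47), as was Trf, transferrin itself, at 5549.9 in Ocn-EV, 1812 in All-EV and 3750.3 in Prx1-EV (1.61, 1.53 to 1.70).

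Of 43 tested glutathione and NRF2 genes, 10 were at least 2-fold lower and 4 at least 2-fold higher as deposited. Over all tested genes these shares were 4.2% and 6.27%. The NRF2, glutathione and thioredoxin genes list had 4 of 43 tested members at least 1.5-fold higher and 17 lower, and 7 and 12 with equal totals (medians −0.39 and −0.13). Without the length and GC trend 6 members were higher and 15 lower (median −0.21). Slc7a11, the cystine importer that feeds glutathione synthesis, stood at 828 in Ocn-EV, 4187 in All-EV and 770.3 in Prx1-EV (−2.34, −2.45 to −2.23). Gsta3, a glutathione transferase, stood at 146 in Ocn-EV, 1307 in All-EV and 222 in Prx1-EV (−3.15, −3.43 to −2.91). The 4 higher members included Gpx7 (1.54, 1.10 to 2.03) and Gpx8 (1.60, 1.20 to 2.05), peroxidases of the secretory compartment, and Gpx3 (1.52, 1.35 to 1.69), a secreted one.

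Glycolysis and hypoxia genes were lower more often than higher as deposited, and their medians lay near 0 with equal totals. The glycolysis and lactate list had 2 of 29 tested members at least 1.5-fold higher and 7 lower, and 3 and 0 with equal totals (medians −0.20 and 0.06). Ldha, lactate dehydrogenase, stood at 39111 in Ocn-EV, 68141 in All-EV and 39847 in Prx1-EV (−0.80, −0.82 to −0.78). The hypoxia response list had 2 of 36 tested members at least 1.5-fold higher and 7 lower, and 4 and 5 with equal totals (medians −0.26 and −0.0012). Ero1a, an oxidase of the secretory pathway, stood at 9055 in Ocn-EV, 30458 in All-EV and 12376 in Prx1-EV (−1.75, −1.79 to −1.72), Hilpda, which blocks fat breakdown in droplets, at 2278 in Ocn-EV, 7079 in All-EV and 2359 in Prx1-EV (−1.64, −1.71 to −1.57), and the glucose transporter Slc2a1 at 11669 in Ocn-EV, 29927 in All-EV and 12961 in Prx1-EV (−1.36, −1.39 to −1.33). Hif1a, the oxygen-regulated factor itself, had a log2 ratio of −0.12 (−0.21 to −0.02) as deposited and 0.14 with equal totals, and all cultures were kept at 3% oxygen. Pcx, pyruvate carboxylase, which refills the citrate cycle, stood at 99.4 in Ocn-EV, 515 in All-EV and 108 in Prx1-EV (−2.36, −2.71 to −2.05).

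Arginine and nitric oxide genes were lower at several steps. Of 23 tested arginine, polyamine, nitric oxide and itaconate genes, 2 were at least 1.5-fold higher and 8 lower (median log2 ratio −0.33), and 4 and 4 with equal totals (median −0.07). Besides Arg1 and Acod1, Nos2, the inducible nitric oxide synthase, stood at 24.9 in Ocn-EV, 478 in All-EV and 24.4 in Prx1-EV (−4.21, −4.92 to −3.67), and Ass1, which rebuilds arginine from citrulline, at 106 in Ocn-EV, 466 in All-EV and 168 in Prx1-EV (−2.13, −2.47 to −1.83). The enzymes that compete for arginine, Arg1 and Nos2, were both lower.

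Lipid genes went both ways. The lipid synthesis, storage and uptake list had 9 of 38 tested members at least 1.5-fold higher and 9 lower, and 14 and 5 with equal totals (medians 0.13 and 0.38). Cd36, the fatty acid and lipoprotein scavenger, stood at 34170.2 in Ocn-EV, 84449.5 in All-EV and 35703 in Prx1-EV (−1.31, −1.32 to −1.29), and the fatty acid carrier Fabp5 at 3962 in Ocn-EV, 10580.1 in All-EV and 4850.4 in Prx1-EV (−1.42, −1.47 to −1.36). Scd1, a desaturase, stood at 160.5 in Ocn-EV, 46.4 in All-EV and 163 in Prx1-EV (1.77, 1.29 to 2.32), and Fads2, another, at 118 in Ocn-EV, 37.3 in All-EV and 79.4 in Prx1-EV (1.63, 1.09 to 2.27). Lpl and Pparg, a lipase and a regulator of fat cells, had log2 ratios of 0.09 (0.05 to 0.13) and 0.52 (0.33 to 0.71). Plpp3, which degrades the signal lipid lysophosphatidic acid, stood at 529 in Ocn-EV, 2334 in All-EV and 606 in Prx1-EV (−2.14, −2.28 to −2.0), and the related Plpp1 at 309.6 in Ocn-EV, 92.8 in All-EV and 224 in Prx1-EV (1.73, 1.38 to 2.11), on opposite sides of 0.

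Several membrane transporters were among the genes with the highest ratios. Slc13a5, a citrate importer, stood at 106 in Ocn-EV, 4.53 in All-EV and 59.3 in Prx1-EV (4.27, 3.14 to 6.45). Slco2b1, an organic anion transporter, stood at 223 in Ocn-EV, 18.1 in All-EV and 153 in Prx1-EV (3.55, 2.89 to 4.45), and Abca9, a lipid-transporter family member, at 362 in Ocn-EV, 28.3 in All-EV and 238 in Prx1-EV (3.63, 3.09 to 4.33). Amino acid transporters were split, 6 of 32 tested members at least 1.5-fold higher and 6 lower, and 10 and 3 with equal totals (medians 0.11 and 0.37), and without the length and GC trend 4 and 6. Slc1a1, a glutamate importer, stood at 204 in Ocn-EV, 43 in All-EV and 177 in Prx1-EV (2.22, 1.74 to 2.79). Ion channels and pumps other than potassium channels were higher more often than lower as deposited, a split that was gone without the length and GC trend. Of 46 tested calcium, sodium and chloride channels and pumps, 11 were at least 1.5-fold higher and 1 lower (median log2 ratio 0.15), and 15 and 1 with equal totals (median 0.41). The counts were 7 and 7 without the length and GC trend (median 0.08). Trpv4, a mechanically gated calcium channel, stood at 423 in Ocn-EV, 183 in All-EV and 388 in Prx1-EV (1.20, 0.94 to 1.48).

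The protein synthesis apparatus was lower across its parts, by small amounts per gene and in most parts by fewer members with equal totals or without the length and GC trend. The cytoplasmic translation factors list had 1 of 48 tested members at least 1.5-fold higher and 21 lower, and 2 and 10 with equal totals (medians −0.53 and −0.27). Eif4ebp1, the brake on cap-dependent initiation, stood at 1971 in Ocn-EV, 4831 in All-EV and 2012 in Prx1-EV (−1.29, −1.37 to −1.21), in the same direction as the factor Eif4a2 at 4551 in Ocn-EV, 11004 in All-EV and 4969.9 in Prx1-EV (−1.27, −1.33 to −1.22). Of 22 tested aminoacyl-tRNA synthetases, 0 were at least 1.5-fold higher and 8 lower (median log2 ratio −0.52), and 0 and 2 with equal totals (median −0.27). Without the length and GC trend 0 members were higher and 12 lower (median −0.61). The ribosome assembly and nucleolar proteins list had 0 of 55 tested members at least 1.5-fold higher and 15 lower, and 4 and 11 with equal totals (medians −0.31 and −0.05). Npm1, the nucleolar chaperone, stood at 5412 in Ocn-EV, 12031 in All-EV and 5515 in Prx1-EV (−1.15, −1.20 to −1.10). Of 76 tested mitochondrial ribosomal proteins, 0 were at least 1.5-fold higher and 23 lower (median log2 ratio −0.41), and 1 and 9 with equal totals (median −0.16). Mrpl32, of the large subunit, had a log2 ratio of −1.41 (−1.68 to −1.16). The cytoplasmic ribosomal proteins list had 0 of 57 tested members at least 1.5-fold higher and 52 lower, and 0 and 20 with equal totals (medians −0.81 and −0.55). The counts of ribosomal genes lower without the length and GC trend were 21 of the cytoplasmic and 13 of the mitochondrial list. Many ribosomal protein genes have near-identical copies, so their single values are uncertain.

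Protein folding and turnover showed a contrast within the heat shock genes. The heat shock proteins and chaperonin list had 7 of 50 tested members at least 1.5-fold higher and 14 lower, and 10 and 4 with equal totals (medians −0.12 and 0.14). With the length and GC trend taken out the counts were 8 and 7 (median −0.04). Hspb7, a small heat shock protein of heart and muscle, stood at 312 in Ocn-EV, 18.1 in All-EV and 231 in Prx1-EV (4.03, 3.38 to 4.93). The stress-induced pair Hspa1a (2.40, 2.13 to 2.70) and Hspa1b (2.70, 2.35 to 3.09), near-identical copies, was higher, whereas the mitochondrial chaperones Hspa9 (−0.86, −0.89 to −0.82) and Hspd1 (−0.86, −0.93 to −0.79) were lower. The proteasome subunits list had 0 of 41 tested members at least 1.5-fold higher and 10 lower, and 0 and 3 with equal totals (medians −0.28 and −0.03). The autophagy list had 1 of 44 tested members at least 1.5-fold higher and 8 lower, and 6 and 2 with equal totals (medians −0.19 and 0.06). In both lists fewer members were lower without the length and GC trend, 3 of the proteasome and 4 of the autophagy genes. Sqstm1, the cargo receptor p62, stood at 13774 in Ocn-EV, 33298 in All-EV and 14147 in Prx1-EV (−1.27, −1.30 to −1.24).

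**Figure D4:**
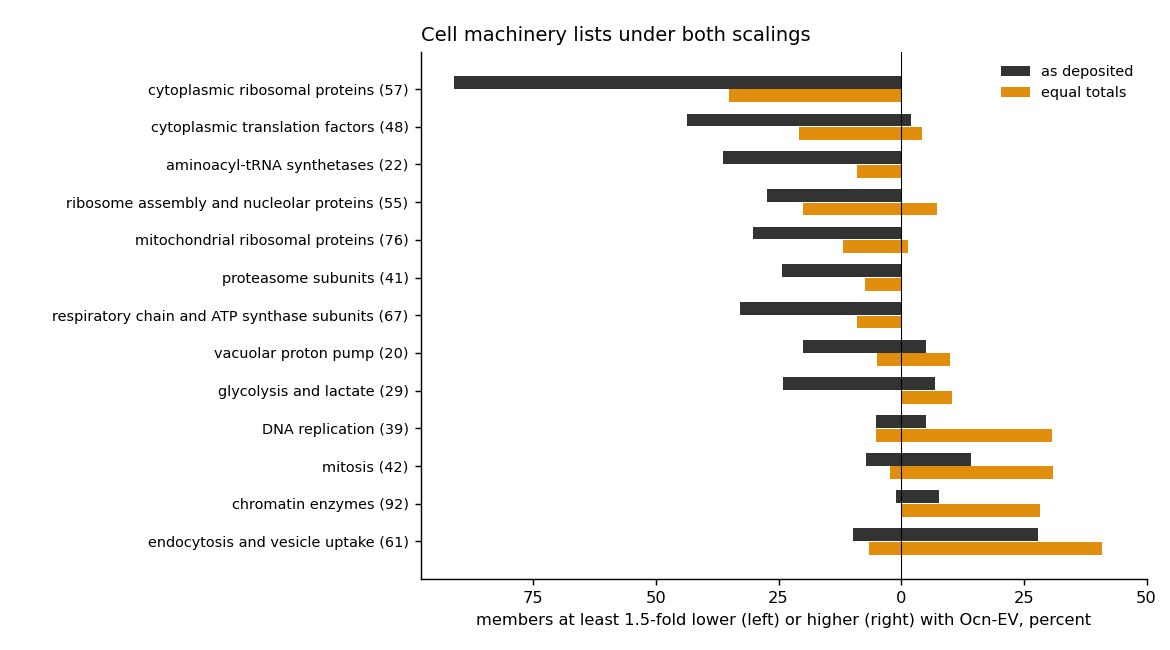
Bars give, for 13 lists with the number of tested members in parentheses, the percent of members at least 1.5-fold lower (left) or higher (right) with Ocn-EV, as deposited (dark) and with libraries set to equal totals (orange). Ribosomal proteins have 52 of 57 members lower as deposited and 20 with equal totals, while chromatin enzymes have 7 of 92 higher as deposited and 26 with equal totals.

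Cell division genes had medians near 0 as deposited and more members higher with equal totals. The DNA replication list had 2 of 39 tested members at least 1.5-fold higher and 2 lower, and 12 and 2 with equal totals (medians 0.06 and 0.31). The counts were 5 and 3 without the length and GC trend (median 0.14). The mitosis list had 6 of 42 tested members at least 1.5-fold higher and 3 lower, and 13 and 1 with equal totals (medians 0.07 and 0.32). Mki67, a marker of dividing cells, had a log2 ratio of 0.06 (−0.10 to 0.23) against All-EV, and its Ocn-EV level exceeded that of Prx1-EV beyond counting error (0.50, 0.33 to 0.67). Among the regulators of the cycle, Cdkn1c, an inhibitor of cyclin-dependent kinases, stood at 666 in Ocn-EV, 2397 in All-EV and 641 in Prx1-EV (−1.85, −1.98 to −1.72) and Myc, the growth-promoting factor, at 698 in Ocn-EV, 1737 in All-EV and 699 in Prx1-EV (−1.31, −1.45 to −1.18), both lower. Sesn1, a stress-induced target of p53, stood at 932 in Ocn-EV, 311 in All-EV and 868 in Prx1-EV (1.58, 1.39 to 1.78).

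Transcription factor genes differed by list. The SOX, FOX, GATA, TBX, RUNX, ETS and bHLH factors list had 21 of 57 tested members at least 1.5-fold higher and 3 lower, and 26 and 3 with equal totals (medians 0.29 and 0.54). Nfatc2, a calcium-regulated factor, stood at 409 in Ocn-EV, 121 in All-EV and 342 in Prx1-EV (1.75, 1.44 to 2.08), and Id3, an inhibitor of differentiation factors that BMP signals induce, at 974 in Ocn-EV, 356 in All-EV and 675 in Prx1-EV (1.45, 1.27 to 1.64). Spic, the factor that specifies iron-recycling macrophages, stood at 14.5 in Ocn-EV, 122 in All-EV and 19.2 in Prx1-EV (−2.99, −3.99 to −2.27), the lowest of the list. The immediate early gene Egr1 stood at 651 in Ocn-EV, 96.2 in All-EV and 471 in Prx1-EV (2.75, 2.43 to 3.10), and Mef2c, a factor of muscle and macrophages, at 858 in Ocn-EV, 241 in All-EV and 803 in Prx1-EV (1.83, 1.61 to 2.06). The immediate early and AP-1 factors list had 9 of 34 tested members at least 1.5-fold higher and 8 lower (median 0.02). With equal totals the counts were 12 and 6 (median 0.28), and without the length and GC trend 9 and 9. Among 36 tested nuclear receptors and circadian clock genes, 4 were at least 1.5-fold higher and 3 lower (median −0.01). Their counts were 8 and 2 with equal totals (median 0.25), and 3 and 4 without the trend. Of 92 tested chromatin enzymes, 7 were at least 1.5-fold higher and 1 lower (median log2 ratio 0.15), and 26 and 0 with equal totals (median 0.40). Without the length and GC trend 2 members were higher and 1 lower (median 0.01). Tet3, which oxidises methylated cytosine, stood at 1962 in Ocn-EV, 853 in All-EV and 1909 in Prx1-EV (1.20, 1.08 to 1.32).

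The 10 genes with the largest gains took 2.95% of reads in Ocn-EV, 1.01% in All-EV and 2.52% in Prx1-EV. The largest gain was that of Apoe, the lipid carrier of macrophages, with 0.868% in Ocn-EV, 0.240% in All-EV and 0.767% in Prx1-EV. Lrp1, a receptor that takes up apolipoprotein E, had 0.632% in Ocn-EV, 0.392% in All-EV and 0.620% in Prx1-EV, and Thbs1, a matrix protein that activates TGF-beta, had 0.251% in Ocn-EV, 0.0440% in All-EV and 0.192% in Prx1-EV. The 10 genes with the largest losses took 9.37%, 15.3% and 9.85% in the same order. They included both ferritin chains, with 1.81% in Ocn-EV, 2.93% in All-EV and 1.90% in Prx1-EV for Fth1 and 0.898% in Ocn-EV, 1.99% in All-EV and 0.905% in Prx1-EV for Ftl1, and Mmp12, the macrophage elastase, with 0.543% in Ocn-EV, 1.63% in All-EV and 0.583% in Prx1-EV.

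**Figure D5:**
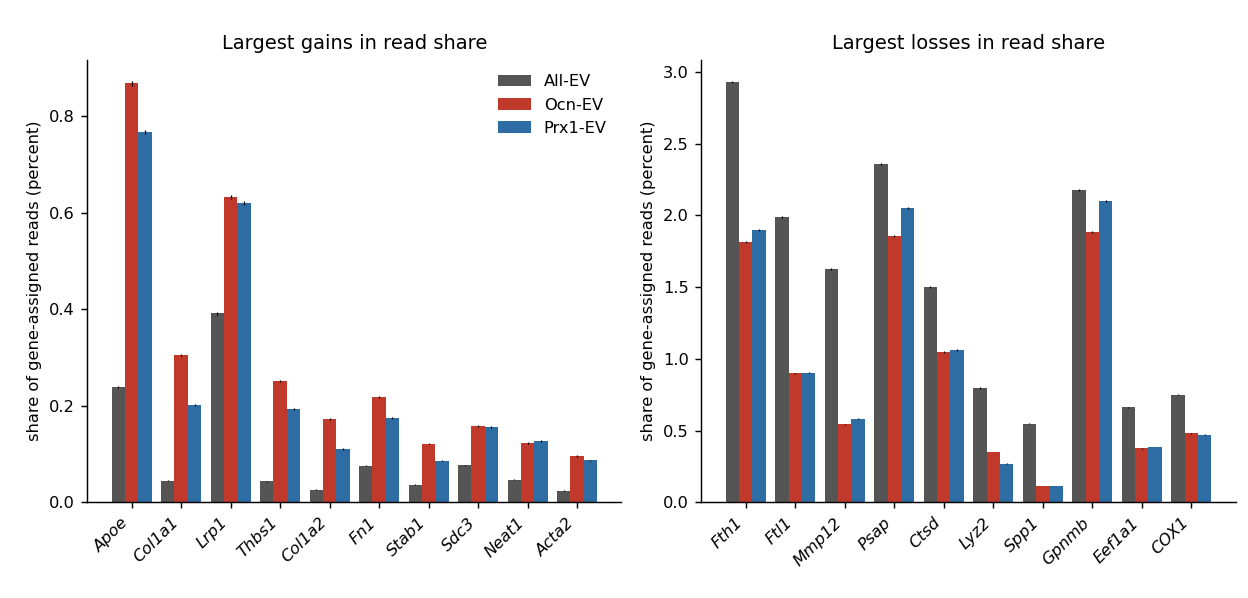
Share of gene-assigned reads, in percent, for the 10 genes with the largest gain (left) and the 10 with the largest loss (right) between All-EV and Ocn-EV, with Prx1-EV beside them. Bars are single libraries and error bars are exact 95% Clopper-Pearson intervals, which cover counting error only. Apoe takes 0.240% in All-EV and 0.868% in Ocn-EV, and Fth1 takes 2.93% and 1.81%.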

How the data were processed

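Libraries were prepared with a NEBNext Ultra II kit (100 ng of total RNA) and read as 150-base pairs, per the labels' protocols. The submitters' processing notes list the build mm10 and, without order or settings, DESeq2 2.11.40.8, featureCounts 2.0.3, HISAT2 2.2.1, Trimmomatic 0.38.1 and FastQC 0.74. Whether counting used strand is not stated there, so antisense and overlapping genes cannot be separated. The deposited signal values are counts per gene that the authors normalised. In each library 100% of values were whole multiples of the value of 1 read (1.04 in Ocn-EV, 1.13 in All-EV, 0.872 in Prx1-EV, at a tolerance of 1e-06), and whole reads were recovered by division. Reads carry no molecular identifiers, so intervals and limits cover counting error only.

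Identifiers were matched to symbols, positions and promoters in RefSeq tables of GRCm38.p6, which is the mm10 build, and 89 tested genes had no symbol. Of the tested genes 8843 had a promoter, and the first one listed was used. Ratios took a pseudocount of 1, which pulls low genes toward 0, and folds are plain ratios of levels. A library at 0 reads was set to 3 reads for a lower bound. For 10798 tested genes (97.6%) GENCODE vM21 gave the length and GC content of transcripts, and their trend was fitted with polynomials of degree 3. Samples were grouped by their labels. Calculations used Python 3.11.15, numpy 2.4.6, pandas 2.3.3, scipy 1.17.1, statsmodels 0.14.6 and matplotlib 3.10.9, and were tested on simulated data.

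The genes, the 71 function lists and the marker lists were chosen with earlier results of these data known, so no list is independent evidence. Named were plain symbols among the 15 highest or lowest ratios, the same among genes with a mean of at least 1000, up to 4 members in each direction of a list with at least 5 tested members that were at least 1.5-fold apart, the 10 largest gains and losses in read share, and 14 genes fixed as controls. Chosen after their values were seen were the ephrin genes, the epithelial genes of the closing section and any other gene outside this rule. Alternatives were equal totals, pseudocounts of 5 and 0.1, level filters of 10, 200 and none, fold thresholds of 1.5 and 4, ratios without the length and GC trend, and forward-strand motifs. A test on reads was added after the data were seen.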

Additional observations from a re-analysis of the deposited data

Results flagged for a closer look

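Below the level filter of 50, 5 genes had at least 30 reads in Ocn-EV and 0 in All-EV, and none had the reverse. They were Cyp2f2 (45 reads in Ocn-EV, 24 in Prx1-EV), Prss35 (44 and 29), Map3k7cl (41 and 29), Slc34a2 (34 and 18) and Sec14l3 (31 and 15). A library with 0 reads allows up to 3. Cyp2f2 and Sec14l3 are known from club cells of the airway and Slc34a2 from alveolar cells of the lung.

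Because of these values, 18 genes known from airway and alveolar epithelium were read out, a list chosen after the values were seen. Scgb1a1, the main secretory protein of club cells and the only gene of the list above the level filter, had 170 reads in Ocn-EV, 5 in All-EV and 136 in Prx1-EV. Sftpc, a surfactant protein gene of alveolar cells, had 85, 1 and 60 reads, Sftpb had 21, 0 and 22, and Sftpa1 had 14, 0 and 13, in the same order. The general epithelial genes Epcam (2, 1 and 1 reads) and Krt8 (2, 1 and 2) were near 0 in all libraries, and Cdh1 had 3, 15 and 5. The list held 445 reads in Ocn-EV, 32 in All-EV and 327 in Prx1-EV, with 10 of its genes at 0 in All-EV and 1 in Ocn-EV. The source of these reads, and their part in any other ratio, was not tested.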

How the results depend on the processing

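No paired analysis was possible because each group has 1 library. Equal totals gave 1113 genes at least 2-fold higher and 248 lower, against 694 and 465 as deposited, and changed the sign of 18 of 70 list medians. Taking out the length and GC trend changed the sign of 10 list medians, the filter of 200 of 9, the filter of 10 of 7 and no filter of 5, while the pseudocounts changed none. A filter at a mean of 10 gave 1894 genes at least 2-fold apart (1168 higher, 726 lower), a filter at 200 gave 678 (356 higher), and no filter gave 4816 (2764 higher, 2052 lower), against 1159 at the filter of 50. Thresholds of 1.5-fold and 4-fold gave 3034 and 212. The threshold sets its counts by construction. Filters change which genes are tested, and genes with a mean between 50 and 100 were more often 2-fold apart than the tested genes as a whole. The cause was not tested. The other counts stayed within 1.5 times, with pseudocounts of 5 and 0.1 (1110 and 1171) and without the length and GC trend (977). An exact conditional binomial test on reads was also run. It compares the libraries alone and covers counting error only, so its calls are not used as support. No named gene at least 1.5-fold apart changed sign under the alternatives run. With the forward strand alone, the 9 shares of promoters with a match were lower by construction. Depth limits genes with a mean under 100, whose median counting interval reached 0.53 to either side.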
